A study of Mus musculus with 4 samples.

Results

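The genes of the D-type cyclins (Ccnd1, Ccnd2, Ccnd3), of the kinases they activate (Cdk4, Cdk6) and of the CDK inhibitors Cdkn1a, Cdkn1b, Cdkn1c, Cdkn2a and Cdkn2c were followed in 4 mouse mammary tumours. Every probe set that the array's annotation assigns to 1 of these genes and to no other gene was taken, which gave 26 probe sets for the 10 genes, out of 18194 genes named by single-symbol probe sets. The tumours grew in nude mice, which received transplants of Eph4 cells, an established mouse mammary epithelial line. In 2 tumours (Eph_EN_DN, called EN-TAM67 here) the cells carried the ETV6-NTRK3 fusion oncogene (EN), a kinase fusion of the neurotrophin receptor NTRK3, and also TAM67, a dominant negative c-Jun that blocks the AP-1 transcription factor. In the other 2 tumours (Eph_EN, called EN here) they carried ETV6-NTRK3 without TAM67, so both groups share the fusion, the line and the nude host, and neither is an untransformed control. The age and strain of the mice, the promoters of the constructs and whether the transduced cells were pools or clones are not given in the sources used here, and nude mice lack a normal thymus but still supply stroma, vessels and myeloid cells to a tumour. Total RNA from each tumour was read on 1 Affymetrix array.

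D-type cyclins bind CDK4 or CDK6, and the active kinases phosphorylate the retinoblastoma protein, which releases E2F factors and lets a cell pass from G1 into S phase. INK4 inhibitors (here Cdkn2a and Cdkn2c) bind CDK4 and CDK6 directly, whereas Cip/Kip inhibitors (Cdkn1a, Cdkn1b, Cdkn1c) bind cyclin-CDK complexes, mainly those of CDK2. Growth factor signalling through Ras and ERK raises cyclin D1 in many cell types, and Ccnd1 is a textbook target of AP-1; in the mammary gland cyclin D1 is needed for lobuloalveolar growth in pregnancy. The comparison addresses whether blocking AP-1 in tumours driven by the fusion is accompanied by other levels of these genes.

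The deposited values are intensities in array units. They are given below for tumour 1 and then tumour 2 of each group. Each difference takes log2(intensity + 16) and subtracts the EN mean from the EN-TAM67 mean (n = 2 each), so a positive one means higher in EN-TAM67 tumours; it comes with a standard error (SE) and a p-value from limma, adjusted over all 27022 probe sets tested (Benjamini-Hochberg, threshold 0.05). A probe set was tested if its mean over the 4 arrays exceeded 27.2 units, which leaves out the dimmest 40% of all probe sets; 19 member probe sets of 8 genes were tested, and 7 were not, among them the only ones of Cdkn1c and Cdkn2a. An exact permutation test of 2 tumours against 2 cannot give a two-sided p below 0.333, so single genes were judged by the fit across all probe sets alone. Nothing beyond the tumour number says that tumours of a group came from separate mice or cultures, and p-values then reflect no more than how these 4 samples vary, which can be technical.

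Whole-array measures differed between the groups. Array medians were 38.1 and 40.8 units in EN-TAM67 tumours and 35.6 and 35.9 units in EN tumours. The ratio of 3' to 5' signal, a sign of RNA quality, was 1.17 and 1.11 for Gapdh in EN-TAM67 tumours against 0.938 and 1.04 in EN tumours. The mean signal of 18S ribosomal RNA was 6.76 and 7.43 on the log2 scale in EN-TAM67 tumours and 5.43 and 6.40 in EN tumours. Of 11 epithelial markers 9 were tested and 0 passed, with 5 positive and 4 negative differences and a median of 0.15, and their summed signal was 3193 to 3462 units in EN-TAM67 and 3743 to 4019 units in EN tumours. Krt8 was the brightest (1470 to 1596 units in EN-TAM67, 2017 to 2048 in EN), while Krt5, Krt7 and Cldn4 read near the array medians in some tumours and Krt19 read 3.41 to 15.8 units in EN-TAM67 and 10.3 to 10.8 units in EN tumours. Differences were negative for 9 of 10 fibroblast, 9 of 9 macrophage and 5 of 5 endothelial markers tested and positive for 5 of 5 adipocyte markers tested, none of which passed. Summed over the 10 fibroblast markers, EN-TAM67 tumours held 14741 to 17059 units and EN tumours 19109 to 25915 units. For 9 macrophage markers the sums were 9195 to 10900 units in EN-TAM67 and 14220 to 17698 units in EN tumours, and for the 7 adipocyte markers named on the array 833 to 4102 units in EN-TAM67 and 312 to 447 units in EN tumours; no marker value on these lists was 0. The summed endothelial, lymphocyte and skeletal muscle markers were 442 to 524, 685 to 750 and 288 to 289 units in EN-TAM67 tumours, against 589 to 796, 768 to 933 and 150 to 191 units in EN tumours, and Myh1, a muscle myosin, rose by 1.39 ± 0.24 (limma adjusted p = 0.025), a call lost in 5 of the 16 alternatives. Without Myh1 the muscle sums were 145 and 126 units in EN-TAM67 tumours and 111 and 131 units in EN tumours, which overlap. The Jun probe set of highest mean differed by -0.00056 (SE 0.23, adjusted p = 1.00); whether it reads the truncated TAM67 transcript is not given, so it checks nothing about the labels.

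No member passed the threshold in the fit over probe sets, and 1 probe set of Cdkn1b came close to it. Of the 19 member probe sets tested, 0 were called, where 0.226% of all tested probe sets were (15 higher and 46 lower). At an unadjusted p under 0.05 limma gave 1 member probe set, which is 5.26% of the 19, against 9.48% of all tested. Differences were positive for 9 and negative for 10 member probe sets, with a median of -0.058, beside a median of 0.041 over all probe sets tested. With 1 brightest probe set per gene the member median was -0.14, beside 0.020 over all genes so tested. With the probe sets of each gene averaged it was 0.032, beside 0.028. Both EN-TAM67 tumours lay above both EN tumours in 4 of the 19 member probe sets and below them in 4, where the backgrounds over all tested probe sets were 21.7% and 18.1%. The members as a group therefore sat close to the background of these arrays, and the gene-by-gene values follow.

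**Figure D1:**
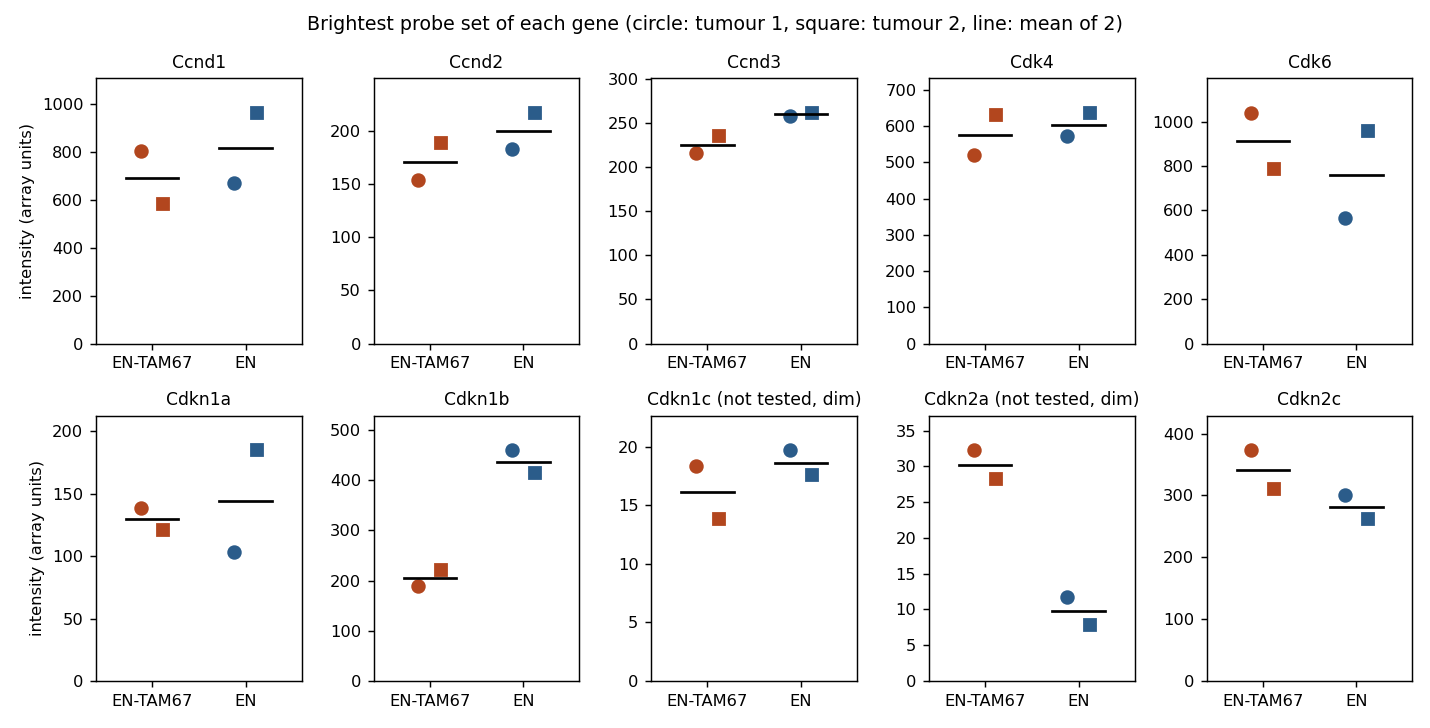
Intensity (array units, linear axis from 0, a separate scale for each gene) of the probe set with the highest mean for each of the 10 genes, with a circle for tumour 1, a square for tumour 2 and a line at the mean of 2. In Cdkn1b the EN-TAM67 tumours read 190.0 and 222 units and the EN tumours 460 and 415 units; Cdkn1c and Cdkn2a lay under the filter on dim probe sets and were not tested.

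Cyclin D1 was read by 3 bright probe sets, which were lower on average in EN-TAM67 tumours without passing the test. The brightest (1448698_at) read 804 and 581 units in EN-TAM67 tumours and 669 and 962 units in EN tumours. The groups overlapped, and the tumours within each group lay further apart than the group means, with a difference of -0.23 ± 0.23 (SE, limma adjusted p = 0.80, 95% interval -0.71 to 0.26). Probe set 1417420_at read 719 and 513 units in EN-TAM67 tumours and 641 and 778 units in EN tumours, at -0.21 ± 0.22. Probe set 1417419_at read 614 and 488 units in EN-TAM67 tumours against 656 and 846 units in EN tumours, so here both EN-TAM67 tumours were the lower ones. Its difference was -0.43 ± 0.21 (limma adjusted p = 0.55, interval -0.88 to 0.017). EN-TAM67 tumour 2 was the lowest of the 4 tumours on all 3 probe sets, and without it 1448698_at differed by 0.0022, 1417420_at by 0.027 and 1417419_at by -0.27. Probe set 1417419_at passed in none of its 14 alternatives, where its difference ran from -0.61 to -0.25. Most of these could not turn its sign. Settings for the filter, variance model, block and threshold leave the difference at -0.43, and with groups that do not overlap, leaving out 1 array cannot turn it.

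Cyclin D2, which replaces or accompanies cyclin D1 in tissues such as ovary and B cells, had 7 probe sets whose readings did not go one way. The brightest (1416122_at) read 154 and 188 units in EN-TAM67 tumours and 183 and 217 units in EN tumours, with overlapping groups and a difference of -0.21 ± 0.22 (limma adjusted p = 0.82). Probe set 1434745_at read 176 and 178 units in EN-TAM67 tumours and 135 and 144 units in EN tumours. These groups did not overlap, in the opposite direction to the brightest probe set, and differed by 0.31 ± 0.22 (limma adjusted p = 0.69). Probe set 1430127_a_at read 68.5 and 80.2 units in EN-TAM67 tumours and 77.6 and 59.2 units in EN tumours (0.10 ± 0.23). Probe set 1455956_x_at, whose suffix marks probes that can also bind other transcripts, read 50.8 and 40.7 units in EN-TAM67 tumours and 36.1 and 49.2 units in EN tumours (0.079 ± 0.29). Near the array medians, 1448229_s_at read 36.9 and 37.9 units in EN-TAM67 tumours against 30.4 and 32.5 units in EN tumours (0.17 ± 0.34). In all, 4 of the 5 tested probe sets of Ccnd2 were positive and 1 was negative, none passed, and 1455956_x_at turned negative with quantile normalization (-0.022) and with arrays centred on their median (-0.020). The remaining 2 were too dim to be tested and read 2.07 to 15.6 units in EN-TAM67 tumours and 4.66 to 19.0 units in EN tumours.

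Cyclin D3, the most widely expressed of the family across tissues and the one best known in lymphoid cells, also gave opposite signs. The brightest probe set (1415907_at) read 216 and 235 units in EN-TAM67 tumours and 259 and 262 units in EN tumours. Both EN-TAM67 tumours were lower, by a difference of -0.19 ± 0.21 (limma adjusted p = 0.82). Probe set 1444323_at was much dimmer, near the array medians in EN tumours. It read 49.2 and 46.5 units in EN-TAM67 tumours and 35.9 and 37.8 units in EN tumours. Both EN-TAM67 tumours were thus higher (0.27 ± 0.29, limma adjusted p = 0.82), by 0.17 with arrays centred on their median. Probe set 1438805_at fell just under the filter, at a mean of 26.9 against the limit of 27.2 units, and read 32.6 and 29.0 units in EN-TAM67 tumours and 23.6 and 22.3 units in EN tumours.

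**Figure D2:**
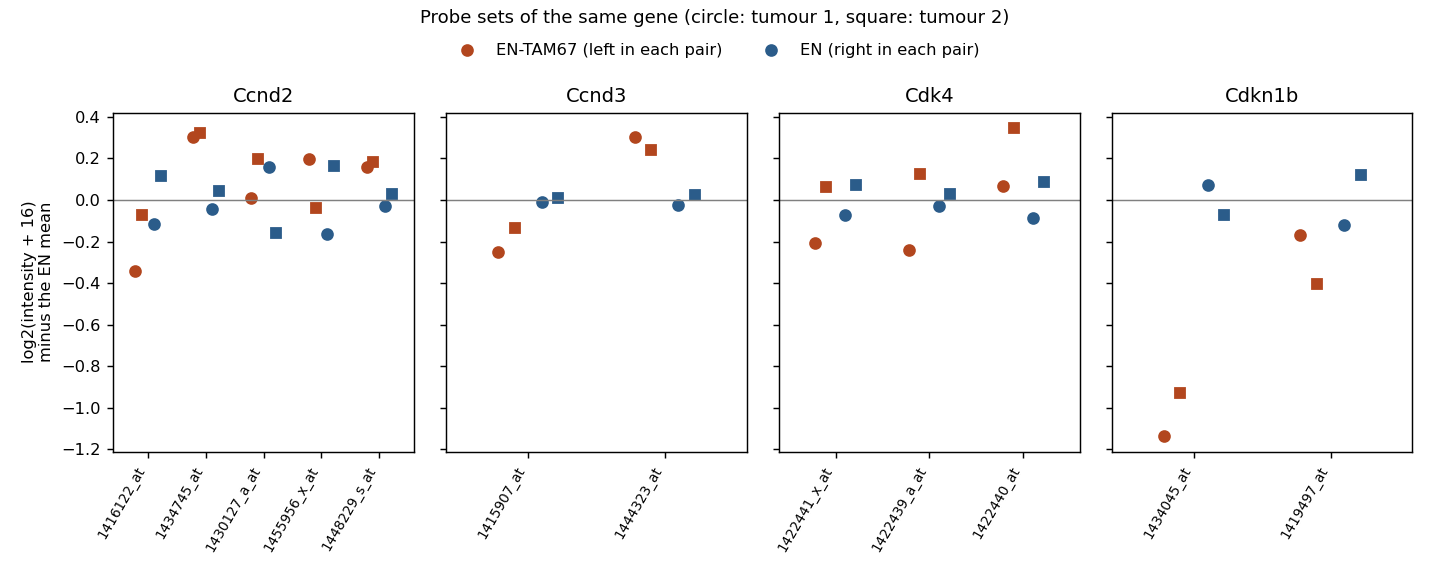
Tested probe sets of Ccnd2, Ccnd3, Cdk4 and Cdkn1b, as log2(intensity + 16) of each tumour minus the mean of the EN tumours, with EN-TAM67 tumours left and EN tumours right in each pair (circle for tumour 1, square for tumour 2). Probe sets of Ccnd2, Ccnd3 and Cdk4 lie on both sides of 0, and the EN-TAM67 tumours of Cdkn1b average -1.03 on one probe set and -0.28 on the other.

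For both kinases the groups differed by less than the tumours of at least 1 group differed among themselves, and no probe set passed. Cdk4, the partner of the D cyclins in most epithelia, read 521 and 631 units in EN-TAM67 tumours and 572 and 636 units in EN tumours on its brightest probe set (1422441_x_at). The suffix of this probe set, as for Ccnd2 1455956_x_at, marks probes that can also bind other transcripts. The groups overlapped, with a difference of -0.071 ± 0.20 (limma adjusted p = 0.95, interval -0.50 to 0.36). Its second probe set (1422439_a_at) read 358 and 465 units in EN-TAM67 tumours and 417 and 434 units in EN tumours (-0.058 ± 0.21), and 1422440_at read 297 and 364 units in EN-TAM67 tumours and 266 and 301 units in EN tumours (0.21 ± 0.22). For Cdk4 a change of 2-fold in either direction lay outside the intervals of all 3 probe sets.

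Cdk6, the kinase related to CDK4 that is prominent in blood cells, read 1039 and 785 units in EN-TAM67 tumours and 567 and 956 units in EN tumours on probe set 1455287_at. Probe set 1435338_at read 646 and 563 units in EN-TAM67 tumours and 338 and 583 units in EN tumours. On both probe sets EN tumour 1 was the lowest of the 4 tumours, and EN tumour 2 lay between the EN-TAM67 tumours. The differences were 0.29 ± 0.24 and 0.43 ± 0.24 (limma adjusted p = 0.75 and 0.62). Without EN tumour 1 they were -0.081 and 0.048, and without EN tumour 2 they were 0.66 and 0.81. Probe set 1460291_at was not tested and read 9.29 and 24.7 units in EN-TAM67 tumours and 16.4 and 37.3 units in EN tumours.

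Among the Cip/Kip inhibitors, Cdkn1b, which encodes p27, had the largest difference of the 19 member probe sets tested. Probe set 1434045_at read 190.0 and 222 units in EN-TAM67 tumours and 460 and 415 units in EN tumours, so that both EN-TAM67 tumours lay well below both EN tumours. Its mean was 206 ± 22.6 units in EN-TAM67 and 437 ± 31.7 units in EN tumours (SD, n = 2 each), which is 2.12-fold higher in EN on the intensity scale. The difference was -1.03 ± 0.21 (SE, 95% interval -1.49 to -0.58), and the adjusted p of 0.0687 missed the threshold. By unadjusted p it was the 96th of the 27022 probe sets tested. The second probe set of the gene, 1419497_at, read 82.8 and 67.9 units in EN-TAM67 tumours and 86.2 and 104 units in EN tumours. Here the EN-TAM67 tumours were also the lower ones, by a smaller amount that did not pass (-0.28 ± 0.23, limma adjusted p = 0.74, interval -0.77 to 0.20). How far the 2 probe sets differ from each other was not tested.

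The side of the threshold on which Cdkn1b falls moved with the fit. Its direction was the same in all 16 alternatives, but most of them could not turn it. Settings for the filter, variance model, block, threshold and brightest probe set per gene leave the difference at -1.03. Since the groups do not overlap, leaving out 1 array cannot turn the sign either. With only the brightest probe set of each gene tested, Cdkn1b fell with an adjusted p of 0.0377 (limma; 0.578% of 13325 genes called), and with the dim probe sets kept in, its adjusted p was 0.0136 (0.335% of 45037 called). It also passed without EN tumour 2 (-1.10, adjusted p = 0.0313, 1.01% called) and at a threshold of 0.10 (0.544% called). It did not pass in the 12 other alternatives, where the adjusted p ran from 0.063 to 0.47; with the probe sets of the gene averaged the difference was -0.66 with an adjusted p of 0.22, and without the intensity trend the p was 0.47. In the alternatives that keep 1434045_at on its own, its difference ran from -1.14 to -0.89. The 3' to 5' ratios, the 18S signal and the sums of epithelial, fibroblast, macrophage, endothelial, lymphocyte and adipocyte markers given above also separated the groups without overlap, and their part in this difference was not tested; in RNA from whole tumours, fewer cells of a type and less RNA per cell cannot be told apart.

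The 250 bases before the annotated start of Cdkn1b are shown because it is the member with the largest difference between tumours with and without an AP-1 blocker (RefSeq, GRCm38.p6, chr6:134920151-134920400, plus strand), with the GC box GGGCGG in capitals.
Cdkn1b: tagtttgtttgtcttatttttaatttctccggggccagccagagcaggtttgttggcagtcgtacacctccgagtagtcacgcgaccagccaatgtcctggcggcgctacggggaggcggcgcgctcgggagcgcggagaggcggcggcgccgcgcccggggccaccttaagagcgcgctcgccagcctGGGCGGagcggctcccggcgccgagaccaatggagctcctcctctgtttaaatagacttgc
The AP-1 motif TGANTCA and the CRE motif TGACGTCA, each searched on both strands, do not occur in this window. Windows of the same kind were at hand for 7 of the 10 members (11 windows, since some genes have several starts; Ccnd1, Ccnd2 and Cdkn1c had none). TGANTCA occurred in 0 of the 11 and in 6.75% of the 32851 windows of all genes, TGACGTCA in 0 of 11 and in 1.55%, and GGGCGG in 7 of 11 and in 32.7%. Except for a Cdkn2c window at 42.8%, the member windows held 54.0 to 78.4% GC, above the median of 52.4% over all windows. The part of GC content in the GC box count was not tested. A match is a description of letters in a short window, and AP-1 also binds at sites far from a start.

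Cdkn1a encodes p21, the inhibitor best known as a target of p53. Its brightest probe set (1424638_at) read 139 and 121 units in EN-TAM67 tumours and 103 and 185 units in EN tumours. The EN tumours stood on either side of the EN-TAM67 tumours, and the difference was -0.088 ± 0.26 (limma adjusted p = 0.95, interval -0.65 to 0.47). Without EN tumour 2 it was 0.29, and without EN tumour 1 it was -0.46. The second probe set, too dim to be tested, read 25.0 and 30.5 units in EN-TAM67 tumours and 20.4 and 16.3 units in EN tumours. Cdkn1c, an imprinted gene that encodes p57, had 1 probe set, which read 18.4 and 13.8 units in EN-TAM67 tumours and 19.7 and 17.6 units in EN tumours, below the median of each array, and was not tested.

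The INK4 inhibitors among the members, Cdkn2c and Cdkn2a, gave higher readings in EN-TAM67 tumours, and neither was called. The INK4 genes outside the members, given below, did not share this: Cdkn2d read lower and Cdkn2b overlapped. Cdkn2c, which encodes p18, read 373 and 310 units in EN-TAM67 tumours and 301 and 262 units in EN tumours. Both EN-TAM67 tumours were above both EN tumours, by 0.26 ± 0.22 (limma adjusted p = 0.75, interval -0.20 to 0.72). Cdkn2a read 32.2 and 28.2 units in EN-TAM67 tumours and 11.8 and 7.75 units in EN tumours. The groups did not overlap and the difference was 0.85 on the log2 scale, yet all 4 values lay below the medians of their arrays and their mean lay under the filter, so the probe set was not tested in the main fit. In the fit that kept all dim probe sets limma gave it an adjusted p of 0.64 (unadjusted 0.0521).

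Cdkn2a encodes 2 unrelated proteins from separate first exons, the INK4 inhibitor p16 and p19Arf, which stabilises p53 by binding Mdm2. Its only probe set is of the kind that reads several transcripts of a gene, so its values cannot say which product they stand for. The 250 bases before each of the 2 starts in RefSeq (GRCm38.p6, minus strand) are shown because of this, with GC boxes (GGGCGG) in capitals; the first lies at chr4:89294620-89294869 and the second at chr4:89282193-89282442.
Cdkn2a upstream start: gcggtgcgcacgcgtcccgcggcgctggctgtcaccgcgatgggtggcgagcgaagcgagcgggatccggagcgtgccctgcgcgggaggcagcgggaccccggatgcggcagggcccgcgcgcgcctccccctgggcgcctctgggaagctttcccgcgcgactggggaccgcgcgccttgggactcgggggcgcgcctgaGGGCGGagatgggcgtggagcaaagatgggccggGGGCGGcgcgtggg
Cdkn2a downstream start: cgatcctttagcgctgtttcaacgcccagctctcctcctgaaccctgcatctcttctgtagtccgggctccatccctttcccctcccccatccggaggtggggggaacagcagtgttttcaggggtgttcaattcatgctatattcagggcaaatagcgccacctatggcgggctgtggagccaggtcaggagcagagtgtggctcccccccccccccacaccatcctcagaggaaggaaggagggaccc
The first window has 2 GC boxes and the second has 0.

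**Figure D3:**
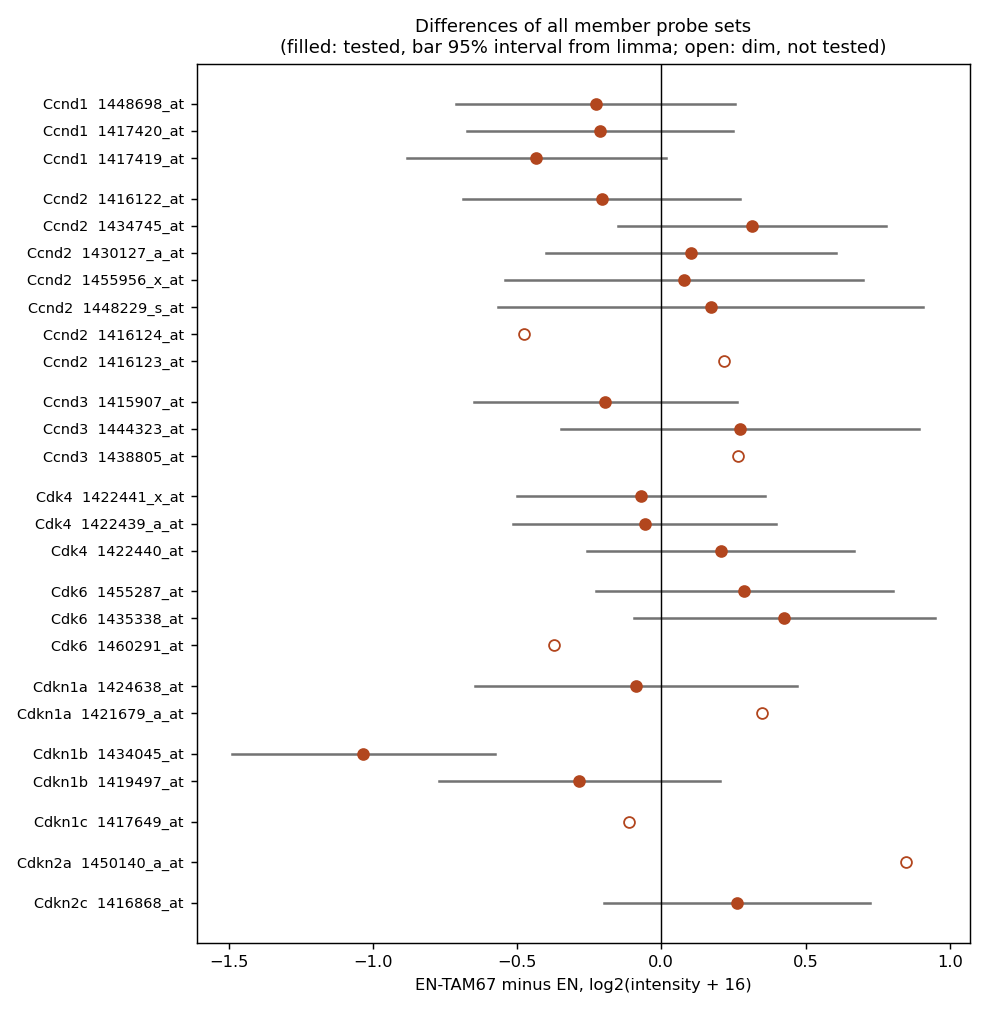
Difference in log2(intensity + 16) between EN-TAM67 and EN means for each of the 26 member probe sets, with filled points and 95% intervals from limma for the 19 tested and open points with no interval for the 7 too dim to be tested. The interval of Cdkn1b 1434045_at (-1.49 to -0.58) is the only one that leaves out 0, before adjustment for the number of probe sets.

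Genes that act with the members at the G1/S boundary showed no common direction. Each gene was represented by its probe set of highest mean. Of 30 such partners (Rb family, E2F and DP factors, cyclin E, CDK2, their regulators, Myc and Max, and the 2 other INK4 genes), 30 were tested, 0 passed in either direction, 16 were positive and 14 negative, and the median was 0.037. The largest differences were in Skp2, the F-box protein that marks p27 for degradation, and Fbxw7, the F-box protein that does so for cyclin E. Skp2 read 306 and 208 units in EN-TAM67 tumours and 113 and 200 units in EN tumours (0.69 ± 0.27, limma adjusted p = 0.46). Both EN-TAM67 tumours were higher than both EN tumours, 1 of them only slightly. Fbxw7 read 106 and 72.9 units in EN-TAM67 tumours and 69.8 and 41.7 units in EN tumours (0.57 ± 0.26, limma adjusted p = 0.52). Cdkn2d, which encodes the INK4 inhibitor p19Ink4d, read 80.4 and 79.0 units in EN-TAM67 tumours and 117 and 111 units in EN tumours (-0.44 ± 0.22, limma adjusted p = 0.56), the opposite direction to Cdkn2c. Cdkn2b, the remaining INK4 gene, read 51.8 and 60.5 units in EN-TAM67 tumours and 30.5 and 69.3 units in EN tumours. Its groups overlapped (0.19 ± 0.30, limma adjusted p = 0.88).

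Genes of DNA replication and mitosis leaned higher in EN-TAM67 tumours, a direction that turned without EN tumour 1. Of 24 such genes 23 were tested, 0 passed, and 20 were positive and 3 negative. Their median was 0.20, against 0.020 over all genes by their brightest probe set and 0.041 over all probe sets tested. Top2a, the topoisomerase that untangles replicated DNA, read 1117 and 883 units in EN-TAM67 tumours and 475 and 940 units in EN tumours (0.56 ± 0.26, limma adjusted p = 0.54). Rrm2, a subunit of ribonucleotide reductase, read 593 and 366 units in EN-TAM67 tumours and 232 and 419 units in EN tumours (0.55 ± 0.28, limma adjusted p = 0.57). In both genes EN tumour 1 was the lowest of the 4 tumours, as it was for Cdk6. Relative to the EN mean the median of the list stood at 0.32 and 0.22 in EN-TAM67 tumours and at -0.31 and 0.31 in EN tumours. Without EN tumour 1 the median of the list was -0.11, and without EN tumour 2 it was 0.52.

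Targets of p53 other than Cdkn1a were also without a call. Of 16 such genes 14 were tested, 0 passed, 10 were positive and 4 negative, and the median was 0.090. Gadd45a, a stress-response gene, read 153 and 124 units in EN-TAM67 tumours and 172 and 225 units in EN tumours (-0.47 ± 0.23, limma adjusted p = 0.55). Phlda3, an inhibitor of Akt signalling, read 674 and 914 units in EN-TAM67 tumours and 1071 and 983 units in EN tumours (-0.38 ± 0.20, limma adjusted p = 0.58). In both genes the EN-TAM67 tumours were the lower ones, unlike the median of their list. With each array centred on its median, the median of all differences moved by -0.099, and the medians became -0.062 for the G1/S partners, 0.099 for replication and mitosis, -0.0091 for the p53 targets and -0.16 for the member probe sets.

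**Figure D4:**
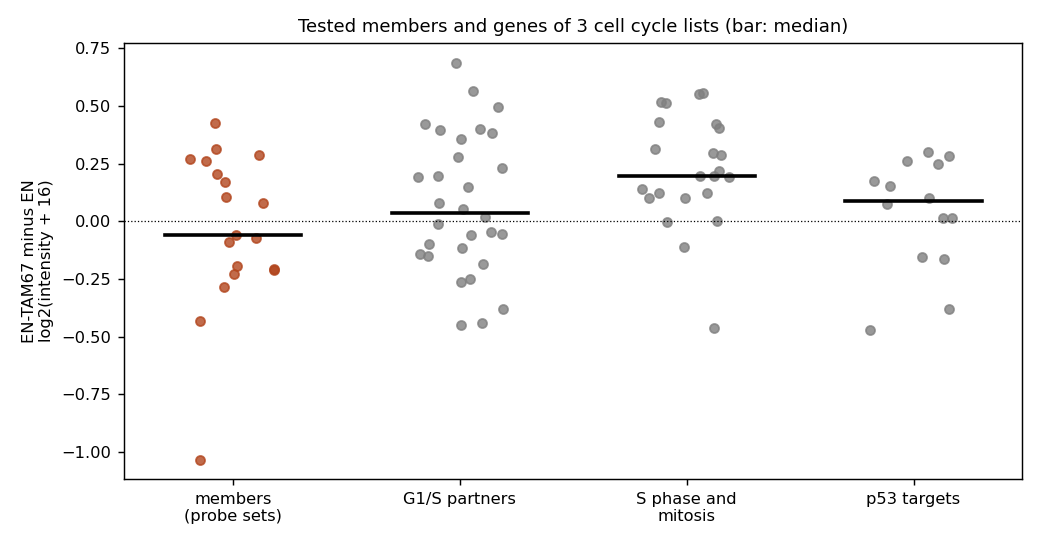
Difference of each tested member probe set and of each tested gene on 3 cell cycle lists, as the EN-TAM67 mean less the EN mean of log2(intensity + 16), with points spread sideways for visibility and a bar at each median. Medians lie at -0.058 for the members, 0.037 for G1/S partners, 0.20 for S phase and mitosis and 0.090 for p53 targets, and Cdkn1b at -1.03 is the lowest point shown. The member median is over probe sets, and with 1 brightest probe set per gene, the unit of the lists, it was -0.14.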

How the data were processed

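Total RNA was extracted with Trizol, cleaned on columns, labelled with biotin and hybridised to Affymetrix mouse arrays, per the labels' protocols and the series' design text. The authors deposited a table of 45101 probe sets by 4 arrays, holding 1 linear intensity per cell; probe summary, background correction and scaling are not given in the sources used here, and no detection calls were used. Array medians of 35.6 to 40.8 units differ, so the deposited intensity values were not set to a common median, and precision is limited by there being 4 arrays. Platform annotation named 34945 of the 45037 non-control probe sets with 1 gene symbol, 932 with several and 9160 with none; only the first kind was named.

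From these values log2(intensity + 16) was computed, which understates fold changes of dim genes. The 64 control probe sets and the dimmest 40% were left out, and the remaining 27022 probe sets were fitted with limma 3.58.1 in R 4.3.3 (lmFit, then eBayes with the prior variance following intensity; two-sided tests, Benjamini-Hochberg over all of them, adjusted p under 0.05), on all 4 tumours and without a term for tumour number. Equal tumour numbers were checked for pairing: the tumour 1 minus tumour 2 differences of the groups correlated at -0.038 over probe sets, and the labels tie no numbers together. Plots used matplotlib 3.10.9.

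All member probe sets are accounted for. From each cell cycle list the genes past the threshold or, with none, the 2 with the largest difference are named. Cdkn2d, Cdkn2b, Krt8, Krt19, Krt5, Krt7, Cldn4, Myh1 and Jun were added after their values were seen. Members and lists were chosen with earlier results of these data known. Alternatives covered the filter, normalization, pseudocounts, variance model, 1 value per gene, the block by tumour number, each array left out, and the threshold. Fits that leave out 1 array take the spread from the group that still has 2 tumours. Sequences came from a RefSeq table of GRCm38.p6.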

Additional observations from a re-analysis of the deposited data

How the results depend on the processing

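Of the 19 member probe sets tested, 0 passed in the main fit, and 1 (Cdkn1b 1434045_at, -1.03) passed when dim probe sets were kept, with the brightest probe set per gene, at a threshold of 0.10 and without EN tumour 2 (-1.10); over the fits that leave out 1 array the count ran from 0 to 1. The counts over all probe sets, 15 higher and 46 lower in the main fit, became 36 higher and 115 lower when dim probe sets were kept, 9 and 29 with arrays centred on their median, 36 and 111 at 0.10, and 23 higher with a pseudocount of 1. Without the intensity trend 0 and 0 passed in limma, with 2129 at an unadjusted p under 0.05. With a replicate block for tumour number 2 and 2 passed and the adjusted p of Cdkn1b 1434045_at was 0.28; the tumours share only a number. Leaving out 1 array gave 14 to 130 higher and 23 to 143 lower: 29 higher and 55 lower when EN-TAM67 tumour 1 was left out, 14 higher and 23 lower for EN-TAM67 tumour 2, 65 and 75 for EN tumour 1, and 130 and 143 for EN tumour 2. The cause of these shifts was not tested.

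Small member differences, none of them past the threshold, changed sign in 16 instances, and the cause was not tested. Ccnd2 1455956_x_at was at -0.022 with quantile normalization and -0.020 with arrays centred on their median. With the probe sets of a gene averaged, Ccnd3 was at 0.039, Ccnd2 at 0.092 and Cdk4 at 0.026. With 1 array left out, Ccnd2 1455956_x_at ran from -0.083 (without EN tumour 1) to 0.24 and was at -0.040 without EN-TAM67 tumour 1. Ccnd2 1430127_a_at ran from -0.054 (without EN tumour 2) to 0.26. Cdk4 1422439_a_at ran from -0.24 to 0.12, and 1422441_x_at from -0.21 to 0.064, both highest without EN-TAM67 tumour 1; the second was at 0.0027 without EN tumour 2. Ccnd1 1417420_at ran from -0.45 to 0.027 (without EN-TAM67 tumour 2), and 1448698_at from -0.48 to 0.030 (without EN tumour 2), with 0.0022 without EN-TAM67 tumour 2. Cdk6 1455287_at ran from -0.081 (without EN tumour 1) to 0.66, and Cdkn1a 1424638_at from -0.46 to 0.29 (without EN tumour 2). With no detection calls, whether the 7 dim probe sets stood above background cannot be said.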
